A study of Oryza sativa with 18 samples.

Results

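Leaf sheaths of the rice line NIL-BPH9 were compared when the brown planthopper (BPH) had been on the plants for 6 h and for 3 h, using the 3 arrays of each time, 6 of the 18 arrays of the study, chosen by their titles. The study covers 2 rice lines, NIL-BPH9 and 9311, each at 0, 3 and 6 h with 3 biological replicates. Per the labels, NIL-BPH9 is resistant to the insect and 9311 susceptible. By its name NIL-BPH9 is a near-isogenic line that carries BPH9. All plants were 3 weeks old, at the four-leaf stage, and were raised in a growth chamber, and the fourth leaf gave the sheath. The labels give no number of insects per plant, no pooling of plants and no hour of the day. Samples without insects exist for 0 h only, so infestation and time of day cannot be told apart in a change from 3 h to 6 h. The 0 h arrays entered neither the test nor the choice of genes, and 0 h levels are given only as a description beside some genes.

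The brown planthopper pierces the leaf sheath and drinks phloem sap. Rice answers wounding and sap feeding with calcium signals and with jasmonate, a lipid-derived hormone made by lipoxygenase, allene oxide synthase and 12-oxophytodienoate reductase. JAZ proteins, a group of the TIFY family, repress jasmonate responses and are themselves made in response to the hormone. BPH9 encodes a nucleotide-binding leucine-rich repeat protein, the class of plant immune receptors that recognise attackers inside the cell.

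Each array gave 1 log2 signal per probe set. A gene was called when its adjusted p in limma (Benjamini-Hochberg over all 31547 tested probe sets) was below 0.05, and errors of changes are standard errors (SE) of that fit. The arrays' own medians, between 5.28 and 5.47 on the log2 scale at 3 h and 6 h, mark levels near which a signal may be mostly background. Sheath is bulk tissue, so fewer cells of a type and less RNA per cell cannot be told apart. The 3' to 5' signal ratio of 7 control pairs, which climbs as RNA breaks down, averaged 1.33 ± 0.35 (SD, n = 3) on the log2 scale at 3 h and 1.33 ± 0.21 (SD, n = 3) at 6 h (exact permutation test, two-sided, p = 1.0, where 3 against 3 arrays cannot go below 0.1). Of the 7 pairs 4 were at that smallest p of 0.1 and went both ways. The first actin and the second glyceraldehyde-3-phosphate dehydrogenase pair were higher at 6 h by 0.29 and 0.24, and the cyclophilin and ubiquitin pairs differed by -0.32 and -0.12 (log2, 6 h minus 3 h). The pairs lay at unlike levels. At 3 h and 6 h the first actin pair stood at 3.24 and 3.53 and the second at 2.75 and 2.76. Elongation factor 1 alpha stood at -0.91 and -0.38, and ubiquitin at -0.54 and -0.65. The part of RNA quality in the results was not tested. Among markers of tissue that a sheath should hold, the photosynthesis list was measured with levels up to 15.30 at 3 h. Of the 8 measured genes listed as seed storage proteins, 1 listed for pollen and 5 for roots, 0, 0 and 1 were called in limma (1, 0 and 2 at an unadjusted p under 0.05), where 13.0% of all genes rose and 15.4% fell. These markers of tissue that a sheath should lack were not all low. Their levels reached 11.62, 8.60 and 9.34 at 3 h, and 6, 1 and 5 genes reached the median on all arrays of a time. Lists were matched by gene name, false matches may remain, and the reason for these levels was not tested.

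Between 3 h and 6 h the sheath of NIL-BPH9 changed in many genes by small amounts, and among the larger changes rises outnumbered falls. Of 15870 genes, each read from 1 probe set, 2063 (13.0%) rose and 2447 (15.4%) fell, and the median size of these changes was 0.35 on the log2 scale. By at least 2-fold, 253 genes (1.59%) rose and 68 (0.428%) fell. By at least 4-fold, 52 rose and 5 fell. At the level of probe sets, 2962 rose and 3590 fell, so 45.2% of the calls were rises. By at least 2-fold 423 probe sets rose and 202 fell, and by at least 4-fold 97 rose and 51 fell, a less one-sided split than over genes. With each array centred on its median 3032 rose and 1260 fell, and 70.6% of calls were rises. The median change over tested probe sets was -0.06 as deposited and 0.03 after centring, and the split between small rises and small falls moved with the scaling.

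**Figure D1:**
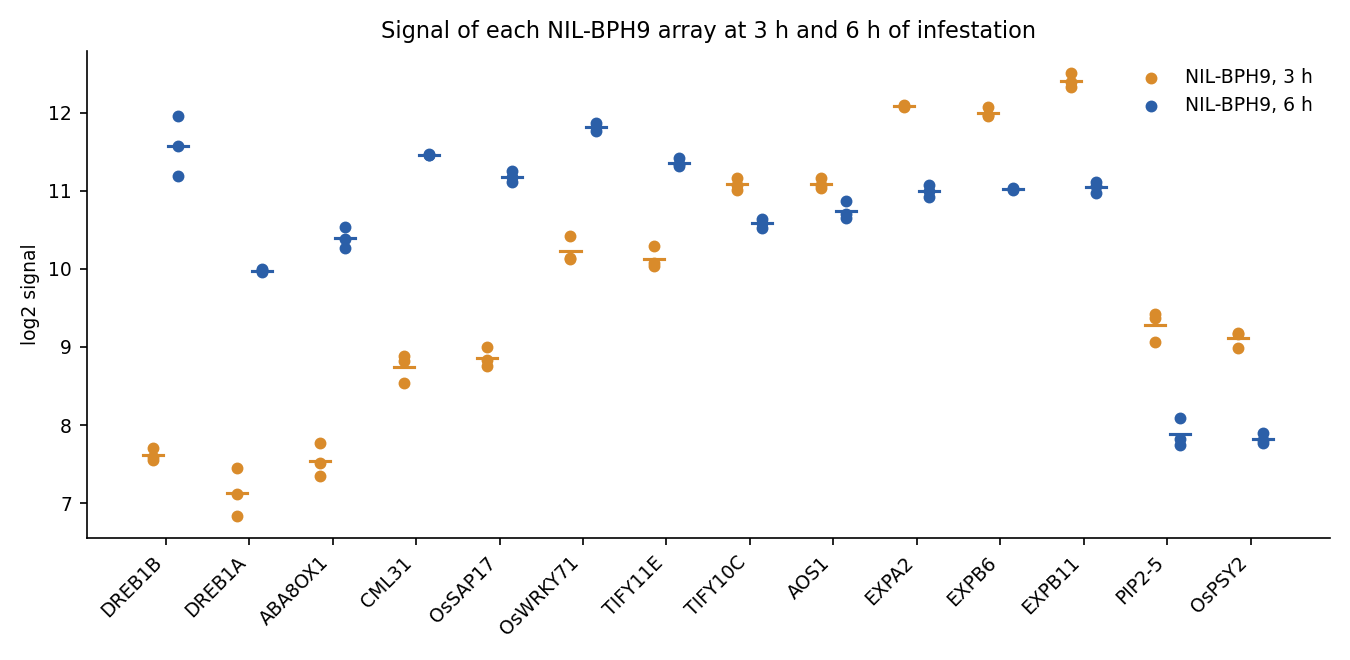
Log2 signal of 14 genes on each NIL-BPH9 array, with 3 h arrays in orange, 6 h arrays in blue, points for arrays and short lines for group means. The 7 genes on the left rose and the 7 on the right fell, and in each of them the 3 h and 6 h arrays do not overlap.

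DREB1B had the largest rise among the genes with a name, and 3 other DREB1 genes also rose by over 4-fold. DREB1 factors are AP2/ERF proteins known for switching on cold and drought genes. DREB1B measured 7.60, 7.55 and 7.71 on the 3 h arrays and 11.57, 11.95 and 11.18 on the 6 h arrays (log2 signal). All 3 arrays at 6 h lay above all 3 at 3 h, which was so in one direction or the other for 47.1% of all genes. DREB1B rose by 3.95 ± 0.18 (log2 change ± SE, limma adjusted p = 6.08e-10), and its 0 h mean was 9.83, between both times. DREB1A stood at 7.45, 6.83 and 7.11 at 3 h and at 9.98, 10.00 and 9.96 at 6 h, a log2 rise of 2.84 ± 0.16 (limma adjusted p = 5.38e-09). DREB1E went from 7.69, 7.77 and 7.57 to 10.50, 10.47 and 10.34, a log2 rise of 2.76 ± 0.14 (limma adjusted p = 1.72e-09). In both genes the times did not overlap, and the 0 h means of 8.36 and 8.62 again lay between them. DREB1G rose by 2.19 ± 0.23 from a mean of 6.12, and DREB2B by 0.45 ± 0.09 from 8.59 (log2, limma adjusted p = 5.94e-06 and 0.00148). Of the 8 measured genes of the DREB and ERF list, 5 rose and 0 fell in limma, beside 13.0% and 15.4% of all genes. The list median was 1.32 on the log2 scale against -0.04 over all genes. Members were matched by name, so the list may not hold the whole family. The list was chosen with earlier results of these data known, so these values are a description and not a test of the list. At an unadjusted p under 0.05 also 5 rose and 0 fell. Under each alternative processing tried 5 rose, and 1 fell with quantile normalization.

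ABA8OX1, CML31 and CML15 had lower means at 3 h than at 0 h and 6 h. ABA8OX1 encodes an abscisic acid 8'-hydroxylase, which starts the breakdown of the hormone. It measured 7.35, 7.52 and 7.77 at 3 h and 10.27, 10.53 and 10.38 at 6 h. The times did not overlap, the rise was 2.85 ± 0.11 on the log2 scale (limma adjusted p = 1.21e-10), and the 0 h mean was 8.61. CML31, a calmodulin-like calcium sensor, measured 8.82, 8.88 and 8.54 at 3 h and 11.46, 11.47 and 11.46 at 6 h. It rose by 2.72 ± 0.09 (log2, limma adjusted p = 1.73e-11) without overlap, and its 0 h mean was 9.83. The related CML15, with means of 10.31 at 0 h and 9.07 at 3 h, rose by 2.06 ± 0.17 and CML14 by 1.74 ± 0.23 on the log2 scale (limma adjusted p = 5.07e-07 and 5.65e-05). Of 72 measured calcium signalling genes 13 rose and 12 fell, beside 13.0% and 15.4% of all genes. Among them 6 rises and 0 falls reached 2-fold, beside 1.59% and 0.428% of all genes. The median change of that list was -0.02, near that of all genes, and after centring 13 rose and 4 fell. In the fit of all 18 arrays the falls numbered 6. Of 26 measured abscisic acid and drought genes 7 rose and 3 fell, beside 13.0% and 15.4% of all genes. Their median log2 change was -0.02, and 1 of the rises reached 2-fold. The rises numbered 4 in the fit of all 18 arrays and without replicate 2 at 3 h or replicate 3 at 6 h, and the falls 1 after centring, without an intensity trend or without replicate 2 at 6 h.

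Stress-associated protein OsSAP17 measured 8.99, 8.76 and 8.83 at 3 h and 11.11, 11.17 and 11.25 at 6 h, again without overlap. Its log2 rise was 2.32 ± 0.08 (limma adjusted p = 4.94e-11), and its 0 h mean was 9.94. OsPP2C32, one of the type 2C protein phosphatases, rose by 2.08 ± 0.11. Of 53 measured genes listed for that family 10 rose and 3 fell, beside 13.0% and 15.4% of all genes. The falls numbered 0 after centring and 1 without replicate 2 at 6 h. GRXS5, a glutaredoxin that handles thiol redox state, rose by 1.59 ± 0.05 from a mean of 11.86. OsC3H33, a CCCH zinc finger protein, rose by 1.40 ± 0.05 from 12.45, and MYB2 by 1.28 ± 0.11 from 8.24. In these 4 genes the limma adjusted p lay at 2.55e-09, 1.91e-11, 5.61e-11 and 7.94e-07, and the arrays of both times did not overlap.

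**Figure D2:**
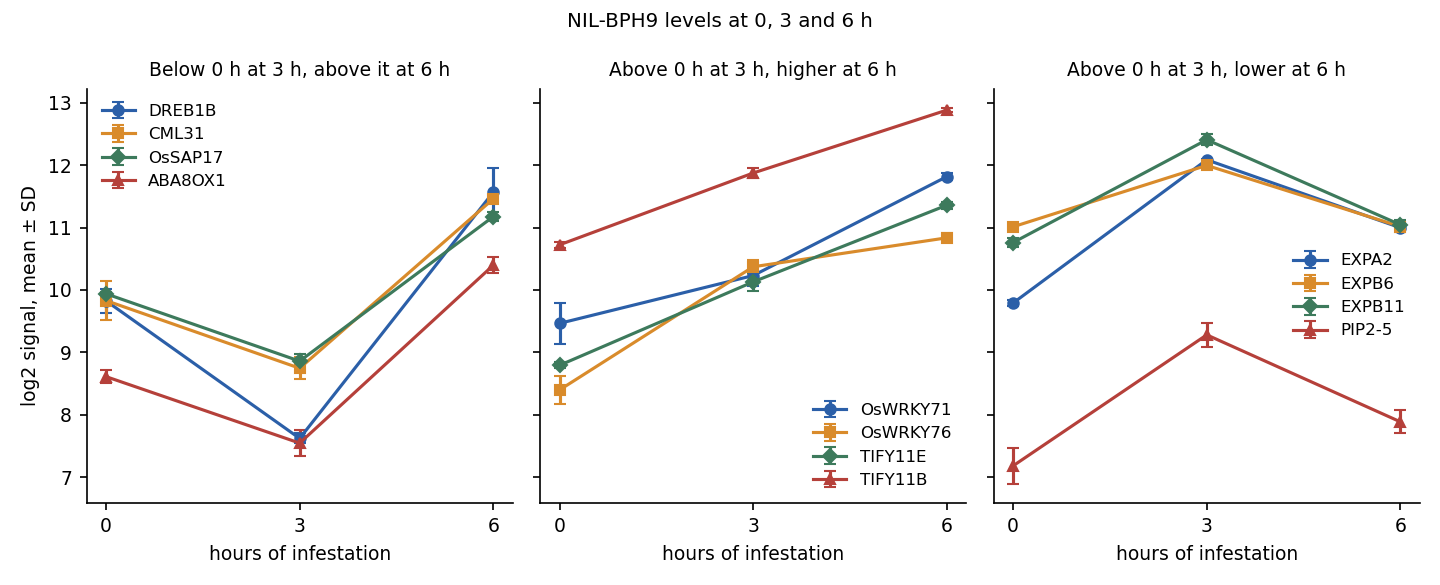
Mean log2 signal ± SD of 3 NIL-BPH9 arrays at 0, 3 and 6 h of infestation, for 12 genes in 3 panels. The 0 h points are a description and played no part in the test, but they were used to sort the genes into panels. DREB1B, CML31, OsSAP17 and ABA8OX1 are lowest at 3 h, OsWRKY71, OsWRKY76, TIFY11E and TIFY11B are highest at 6 h, and EXPA2, EXPB6, EXPB11 and PIP2-5 are highest at 3 h.

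A second set of genes had a 3 h mean above the 0 h mean and rose further by 6 h. The difference between 0 h and 3 h was not tested. OsWRKY71, a transcription factor of the WRKY family known from rice defence, measured 10.43, 10.14 and 10.13 at 3 h and 11.87, 11.82 and 11.77 at 6 h, against a 0 h mean of 9.46. The times did not overlap and the log2 rise was 1.59 ± 0.08 (limma adjusted p = 2.78e-09). OsWRKY76, from a 0 h mean of 8.40, went from 10.37 to 10.84 in the mean, a log2 rise of 0.46 ± 0.08 (limma adjusted p = 0.000713). WRKY51 differed in that its means of 8.21 at 0 h and 8.26 at 3 h lay close together. It rose by 0.54 ± 0.14 from 3 h to 6 h (log2, limma adjusted p = 0.0112), a call that was lost without replicate 2 or replicate 3 at 3 h or replicate 2 at 6 h. Of the 6 measured genes of the WRKY list 3 rose and 0 fell, at an unadjusted p under 0.05 too, beside 13.0% and 15.4% of all genes. The list holds only genes matched by name, and 2458 of 17905 genes had a name, so it may not hold the whole family.

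Cht11, Pir7b and MYB4 followed the same course. Cht11, a chitinase, which attacks fungal and insect chitin, rose by 0.88 ± 0.09 on the log2 scale, with means of 7.99 at 0 h, 9.02 at 3 h and 9.90 at 6 h (limma adjusted p = 5.1e-06). Pir7b, an esterase known as a pathogen-induced gene, rose by 1.14 ± 0.15, with means of 6.61, 7.27 and 8.41 (limma adjusted p = 7.49e-05). Of 11 measured chitinases and pathogenesis-related genes 4 rose and 0 fell, beside 13.0% and 15.4% of all genes. One of the 4, Chib3H-a, lay under the array median on all 3 arrays at 3 h and at 6.64, 6.17 and 6.59 at 6 h, so the size of its rise is not given. Its 0 h mean of 4.86 lay above its 3 h mean of 2.98. At an unadjusted p under 0.05 that list held 4 rises and 1 fall. In the salicylate signalling list 3 of 10 genes rose and 0 fell (4 and 1 at an unadjusted p under 0.05), beside 13.0% and 15.4% of all genes. The rises included the NPR1-like NH3 by 0.40 ± 0.07 and OsNPR4 by 0.53 ± 0.13 (log2, limma adjusted p = 0.000811 and 0.00778). MYB4 rose by 0.58 ± 0.10 (log2, limma adjusted p = 0.000761), with means of 9.62, 10.33 and 10.90 at 0, 3 and 6 h.

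The JAZ repressors split. TIFY11E measured 10.03, 10.29 and 10.07 at 3 h and 11.42, 11.34 and 11.32 at 6 h, and rose by 1.23 ± 0.10 without overlap (log2, limma adjusted p = 2.93e-07). TIFY11A rose by 1.02 ± 0.15 from a mean of 9.02 and TIFY11B by 1.01 ± 0.05 from 11.88 (log2, limma adjusted p = 0.000133 and 8.75e-10). At 0 h these 3 genes had means of 8.79, 7.01 and 10.72, each below its 3 h mean. TIFY10C went the other way, from 11.16, 11.01 and 11.07 at 3 h to 10.52, 10.63 and 10.59 at 6 h, without overlap. Its log2 change was -0.50 ± 0.07 (limma adjusted p = 6.23e-05), and at 0 h its mean was 8.84, so at 6 h it was still well above that level.

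TIFY11C changed by -0.26 ± 0.07, from a mean of 11.23 that compares with 8.39 at 0 h (log2, limma adjusted p = 0.0193). TIFY10B changed by -0.12 ± 0.04, from 14.04 to 13.93 (log2, limma adjusted p = 0.0477). The calls of TIFY11C and TIFY10B were both lost after centring, in the fit of all 18 arrays and without replicate 1 at 3 h, replicate 3 at 3 h, replicate 1 at 6 h or replicate 3 at 6 h. TIFY11D was at 10.75 and 10.80 in the mean, with a log2 change of 0.05 ± 0.07 (limma adjusted p = 0.649), and TIFY9 changed by -0.35 ± 0.53 (limma adjusted p = 0.716). Over the 12 measured JAZ genes 3 rose, 3 fell and 6 were not called, where 13.0% of all genes rose and 15.4% fell. The JAZ falls numbered 1 after centring, in the fit of all 18 arrays and without replicate 3 at 3 h, replicate 1 at 6 h or replicate 3 at 6 h.

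In the jasmonate biosynthesis list more genes fell than rose from 3 h to 6 h, a split that was not seen after centring. Members were matched by gene name, and whether each of them makes jasmonate was not tested. AOS1, an allene oxide synthase, measured 11.17, 11.07 and 11.03 at 3 h and 10.87, 10.71 and 10.66 at 6 h. The times did not overlap, and the log2 change was -0.35 ± 0.06 (limma adjusted p = 0.00109). Its 0 h mean was 9.88, below both. OPR13, a 12-oxophytodienoate reductase, changed by -0.27 ± 0.05 from 12.04, and OsOPR5 of the same family by -0.55 ± 0.15 from 8.48 (log2, limma adjusted p = 0.000493 and 0.0159). The OsOPR5 call was lost in the fit of all 18 arrays and without replicate 2 at 3 h, replicate 3 at 3 h or replicate 1 at 6 h. Among lipoxygenases, LOX9 changed by -0.72 ± 0.19 and LOX5 by -0.39 ± 0.06, whereas LOX1.1 rose by 2.01 ± 0.36 from a mean of 5.86, close to the array median (log2, limma adjusted p = 0.0129, 0.00026 and 0.000773). AOS2, a second allene oxide synthase gene, rose by 0.76 ± 0.20 (log2, limma adjusted p = 0.014), and its call was lost without replicate 1 at 3 h or replicate 2 at 6 h, as was that of LOX9.

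Of the 15 measured jasmonate biosynthesis genes 2 rose and 8 fell, beside 13.0% and 15.4% of all genes, with a list median of -0.33 on the log2 scale. After centring 2 rose and 2 fell, the calls of AOS1, OPR13 and OsOPR5 being lost. The falls numbered 5 in the fit of all 18 arrays, without replicate 2 at 3 h and without replicate 3 at 3 h, and the rises 1 without replicate 1 at 3 h or replicate 2 at 6 h.

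Cell wall genes that were high at 3 h came down by 6 h. Expansins loosen the wall of growing cells. EXPA2 measured 12.10, 12.09 and 12.07 at 3 h and 11.07, 10.92 and 11.00 at 6 h, and fell by 1.09 on the log2 scale (SE 0.05, limma adjusted p = 5.82e-10). Its 0 h mean of 9.79 lay below both times. EXPB11 measured 12.33, 12.51 and 12.39 at 3 h and 11.06, 10.97 and 11.11 at 6 h, and EXPB6 went from 12.07, 11.97 and 11.95 to 11.03, 11.00 and 11.02. Their log2 changes were -1.36 ± 0.06 and -0.98 ± 0.05 (limma adjusted p = 4.14e-10 and 6.97e-10). In both genes the times did not overlap, and the 6 h means, 11.05 and 11.02, stood beside 0 h means of 10.76 and 11.01. EXPA1 changed by -0.77 ± 0.15 from 8.59, and OsMAN1, a mannanase that cuts wall mannans, by -1.06 ± 0.10 from 11.82 (log2, limma adjusted p = 0.00167 and 1.99e-06).

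Of the 4 measured expansin-like EXLA genes 2 rose over the same hours, and the other two did not pass. EXLA2 rose by 1.02 ± 0.08 from a mean of 10.23 and EXLA1 by 0.73 ± 0.03 from 12.35 (log2, limma adjusted p = 2.51e-07 and 6.13e-10). Over the 60 measured expansin and wall genes 9 rose and 22 fell, beside 13.0% and 15.4% of all genes. The median change of the list was -0.19, and after centring 9 rose and 16 fell.

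Lignin and phenylpropanoid genes, whose products stiffen walls and serve in defence, were lower in larger part than any other plotted list. Of 23 measured genes 1 rose and 14 fell, beside 13.0% and 15.4% of all genes. The list median was -0.35 on the log2 scale, and after centring 1 rose and 8 fell. This list too was chosen with earlier results of these data known. 4CL1 and 4CL3 encode 4-coumarate-CoA ligases, which activate cinnamic acids for lignin and flavonoids. 4CL3 measured 11.13, 11.06 and 11.13 at 3 h and 10.37, 10.35 and 10.32 at 6 h, without overlap. It changed by -0.76 ± 0.05 and 4CL1 by -1.04 ± 0.15 (log2, limma adjusted p = 5.42e-08 and 0.00017). Of the laccases, which oxidise lignin precursors, LAC4 changed by -1.10 ± 0.09 from 9.89 and LAC7, the single rise of the list, rose by 1.05 ± 0.06 from 12.45 (log2, limma adjusted p = 7.01e-07 and 3.55e-09).

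**Figure D3:**
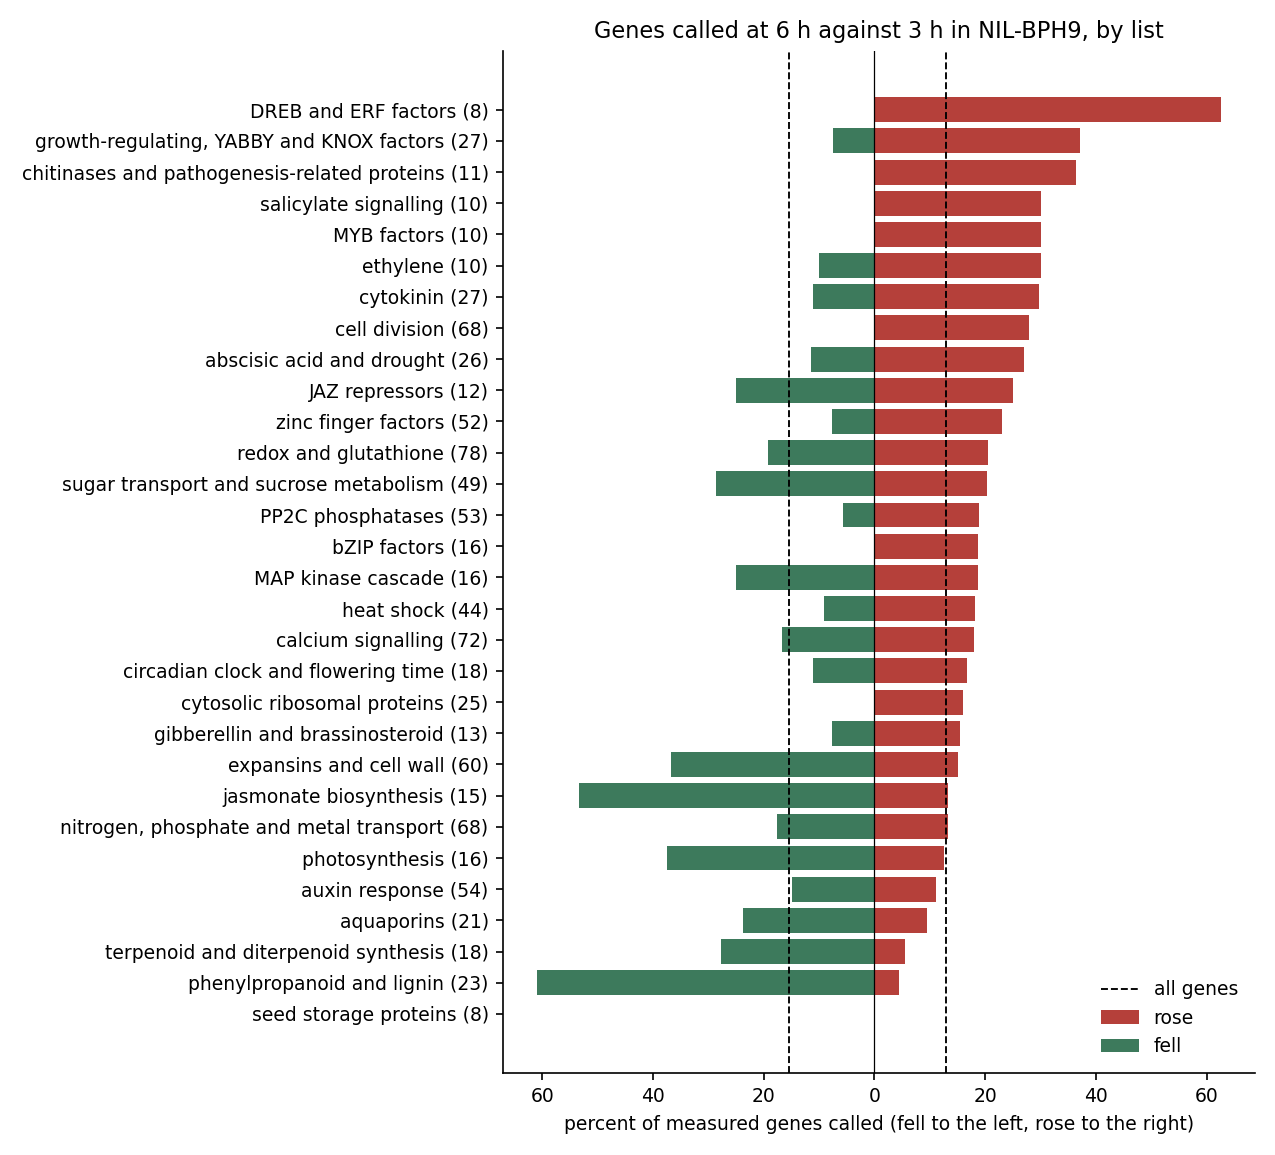
Percent of the measured genes of each list (number in brackets, lists with at least 8 measured genes) that rose, drawn to the right in red, or fell, drawn to the left in green, from 3 h to 6 h in NIL-BPH9; dashed lines mark the 13.0% and 15.4% of all genes. DREB and ERF factors reach furthest to the right with 5 of 8 genes, and phenylpropanoid and lignin genes furthest to the left with 14 of 23. The lists were chosen with earlier results of these data known, so the shares are a description.

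More terpenoid genes fell than rose, as was so over all genes, and the number of falls varied with the processing. Diterpenoids include rice phytoalexins such as momilactones and phytocassanes. CYP99A3, of the momilactone pathway, changed by -0.70 ± 0.18 from 8.23, CYP71Z7, a diterpenoid P450, by -0.80 ± 0.21 from 9.48, and CYP701A8, another P450 of diterpenoid metabolism, by -1.01 ± 0.24 from 7.45 (log2, limma adjusted p = 0.0121, 0.0137 and 0.007). LIS, the synthase of the volatile linalool, measured 10.19, 9.94 and 10.20 at 3 h and 9.61, 9.78 and 9.58 at 6 h, against a 0 h mean of 5.82. Its log2 change of -0.45 ± 0.21 did not pass (limma adjusted p = 0.145), although its arrays did not overlap, and it passed in the fit of the 6 NIL-BPH9 arrays alone (limma adjusted p = 0.00485). Over the 18 measured terpenoid genes 1 rose and 5 fell, beside 13.0% and 15.4% of all genes. The falls numbered 2 after centring or without replicate 3 at 3 h and 3 without replicate 2 at 6 h. The CYP99A3 call was lost in each of these cases, and that of CYP71Z7 in the latter 2.

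Water channels and sugar genes changed in both directions. PIP2-5, a plasma membrane aquaporin, measured 9.42, 9.06 and 9.37 at 3 h and 7.82, 7.74 and 8.09 at 6 h. It fell by 1.39 on the log2 scale without overlap (SE 0.15, limma adjusted p = 6.03e-06), from a level above its 0 h mean of 7.18. PIP1-3 changed by -0.77 ± 0.16, and TIP3-1, of the vacuolar membrane, rose by 1.17 ± 0.13 (log2, limma adjusted p = 0.00244 and 1.53e-05). Of 21 measured aquaporins 2 rose and 5 fell, beside 13.0% and 15.4% of all genes, and 3 rose and 3 fell after centring. The rises numbered 1 without replicate 2 at 6 h.

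OsSWEET15, a sugar exporter of the SWEET family, measured 6.66, 6.69 and 6.99 at 3 h and 4.74, 5.31 and 5.57 at 6 h, at about the array median. The log2 change was -1.57 ± 0.27 (limma adjusted p = 0.000619). AMY1.3, an alpha-amylase that breaks down starch, rose by 1.97 ± 0.31, HXK6, a hexokinase, by 1.55 ± 0.08, and OsTPP1, a trehalose-6-phosphate phosphatase, by 1.36 ± 0.12 (log2, limma adjusted p = 0.000255, 3.55e-09 and 1.21e-06). The 3 h mean of AMY1.3 was 5.77, close to the array median, with replicate 3 at 4.83. Of 49 measured sugar genes 10 rose and 14 fell, beside 13.0% and 15.4% of all genes. By at least 2-fold 3 of them rose and 2 fell. After centring the falls numbered 5, and without replicate 3 at 3 h they numbered 9.

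Other falls came from separate pathways. OsPSY2, a phytoene synthase at the entry to carotenoids, measured 9.16, 8.99 and 9.18 at 3 h and 7.76, 7.80 and 7.89 at 6 h. It fell by 1.29 on the log2 scale without overlap (SE 0.12, limma adjusted p = 1.35e-06), and its 0 h mean was 8.04. HIRL2 changed by -1.19 ± 0.13, NIA1, a nitrate reductase, by -0.89 ± 0.15, and NRAMP5, a manganese transporter, by -0.72 ± 0.06 (log2, limma adjusted p = 7.15e-06, 0.000409 and 1.03e-06). PORA, a protochlorophyllide oxidoreductase, had a log2 change of -0.36 ± 0.04 (limma adjusted p = 1.2e-05). Of the 16 measured photosynthesis genes 2 rose and 6 fell, PORA among the latter, beside 13.0% and 15.4% of all genes. After centring 1 rose and 1 fell, the fit of all 18 arrays gave 1 rise and 3 falls, and leaving out any one of replicates 1 to 3 at 3 h or replicates 1 and 2 at 6 h left 1 rise.

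In the cell division and the growth factor lists more genes rose than fell, where 13.0% of all genes rose and 15.4% fell. In the cell division list 19 of 68 measured genes rose and 0 fell, none by 2-fold, with a median log2 change of 0.15. At an unadjusted p under 0.05, 30 rose and 2 fell. The list held up to 2 falls under the alternatives, and 1 when replicate 3 at 3 h or replicate 2 at 6 h was left out. MCM2, a subunit of the replication helicase, rose by 0.66 ± 0.14, and the D-type cyclins CYCD3-2 and CYCD4-1, which drive entry into the cell cycle, by 0.76 ± 0.17 and 0.71 ± 0.06 (log2, limma adjusted p = 0.00287, 0.00504 and 8.25e-07). Of 27 growth-regulating, YABBY and KNOX factors 10 rose, 3 of them by 2-fold or more, and 2 fell. GRF1 and GRF5, growth-regulating factors active in young leaves, rose by 1.25 ± 0.13 and 1.27 ± 0.22, and OsYAB3, a YABBY factor of leaf development, by 1.03 ± 0.22 (log2, limma adjusted p = 7.98e-06, 0.000662 and 0.00282). The falls of that list numbered 1 after centring and without replicate 2 or replicate 3 at 3 h. The labels do not give the position along the sheath that was sampled, and the part of tissue makeup in these values was not tested.

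The clock and flowering list and the heat shock list each held both rises and falls, where 13.0% of all genes rose and 15.4% fell. Their median log2 changes were 0.06 and 0.01, against -0.04 over all genes. Members that move in opposite directions can offset each other in a median, and the part of time of day was not tested. Of 18 measured clock and flowering genes 3 rose and 2 fell, with 1 fall after centring or in the fit of all 18 arrays. OsPRR95, a pseudo-response regulator of the circadian clock, stood at 12.03 ± 0.03 (SD, n = 3) at 3 h and 12.55 ± 0.01 (SD, n = 3) at 6 h, against a 0 h mean of 13.09. Its log2 rise was 0.52 ± 0.04, without overlap (limma adjusted p = 3.65e-07). Hd1, a flowering-time regulator related to CONSTANS, changed by -1.16 ± 0.27 to a 6 h mean of 5.23, about the array median (log2, limma adjusted p = 0.00565). Of 44 measured heat shock genes 8 rose and 4 fell, led by HSP26.2, a small heat shock protein, with a rise of 1.03 ± 0.11 (log2, limma adjusted p = 6.13e-06), and 1 fell after centring.

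The same hours in the susceptible 9311 gave fewer calls. There 979 genes (6.17%) rose and 787 (4.96%) fell. Of the 253 genes that rose by at least 2-fold in NIL-BPH9, 183 also rose and 1 fell in 9311, and 69 were not called. Of the 68 that fell by at least 2-fold, 11 fell and 4 rose in 9311, and 53 were not called. Across the 15870 genes the changes in both lines correlated at a Pearson r of 0.42, a description over genes measured on the same arrays, whose lines share no sample. The difference between the lines in the change from 3 h to 6 h was tested by itself and was called for 1689 genes (10.6%), 884 of them higher and 805 lower in NIL-BPH9.

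**Figure D4:**
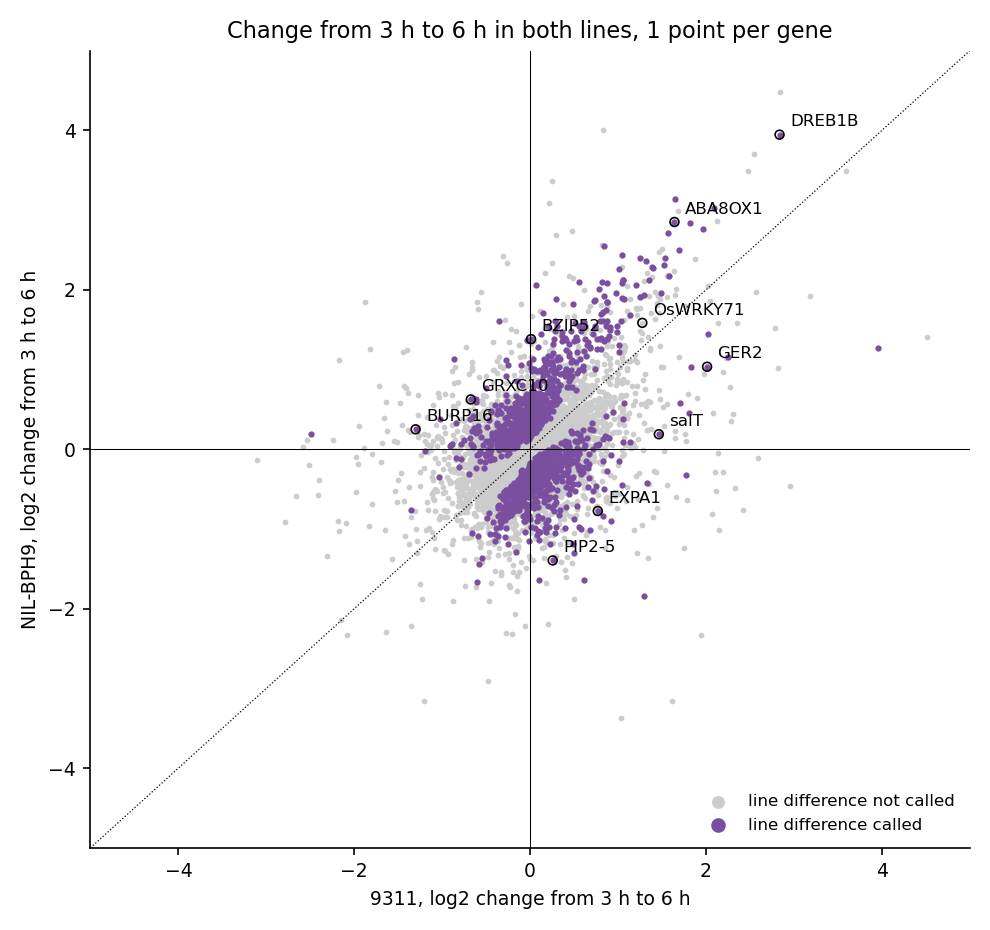
Log2 change from 3 h to 6 h in 9311 (horizontal) against NIL-BPH9 (vertical), 1 point per gene, purple where the line difference was called; 1 gene lies outside the axes and the dotted line marks equal change. DREB1B and ABA8OX1 rise in both lines and lie above the dotted line, while PIP2-5 and EXPA1 lie in the lower right.

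DREB1B, CML31 and ABA8OX1 rose in both lines, and further in NIL-BPH9. DREB1B rose by 2.84 ± 0.18 in 9311, from a mean of 7.97 to 10.80, and the line difference in log2 change was 1.11 (limma adjusted p = 0.015). CML31 rose by 1.56 ± 0.09 in 9311 with a line difference of 1.15, and ABA8OX1 by 1.64 ± 0.11 with one of 1.21 (log2, limma adjusted p of the differences 4.2e-05 and 0.00024). DREB1G and CML14 also rose in both lines, but their line differences of 0.62 and 0.64 did not pass (log2, limma adjusted p = 0.309 and 0.29). For OsWRKY71, TIFY11E, TIFY11A and TIFY11B the line difference did not pass, at 0.31 ± 0.12, 0.16 ± 0.14, -0.09 ± 0.21 and 0.10 ± 0.07 (log2, limma adjusted p = 0.15, 0.57, 0.87 and 0.44), and each of the 4 also rose in 9311.

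Some genes rose in NIL-BPH9 and were level or lower in 9311. BURP16, a BURP-domain protein, rose by 0.25 ± 0.06 in NIL-BPH9 and changed by -1.30 ± 0.06 in 9311, the largest positive line difference among the named genes, 1.55 (log2, limma adjusted p = 9.1e-08). Its NIL-BPH9 call was lost without replicate 2 at 3 h or replicate 3 at 6 h. GRXC1 and GRXC10, both glutaredoxins, rose by 1.11 ± 0.09 and 0.63 ± 0.05 in NIL-BPH9 and changed by -0.27 ± 0.09 and -0.67 ± 0.05 in 9311, of which the second passed. BZIP52, a bZIP transcription factor, rose by 1.38 ± 0.09 in NIL-BPH9 against 0.01 ± 0.09 in 9311. OsEIL1b, of the EIN3-like factors of ethylene signalling, and MADS18, a MADS-box factor, rose by 0.59 ± 0.10 and 0.55 ± 0.09 in NIL-BPH9 and changed by -0.61 ± 0.10 and -0.40 ± 0.09 in 9311.

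An aquaporin and 2 expansins fell in NIL-BPH9 and did not fall in 9311. PIP2-5 changed by 0.26 ± 0.15 in 9311, where it did not pass, and the line difference of -1.65 was the largest negative one among the named genes (log2, limma adjusted p = 0.00015). EXPA1 rose by 0.77 ± 0.15 in 9311, a line difference of -1.54, and EXPB6 stayed at 0.01 ± 0.05, a difference of -0.99 (log2, limma adjusted p = 0.00035 and 3.5e-07). salT, a salt-induced lectin, and RAB21, a dehydrin, rose by 1.46 ± 0.06 and 0.70 ± 0.18 in 9311. In NIL-BPH9 they changed by 0.19 ± 0.06 and -0.64 ± 0.18 (log2, limma adjusted p = 0.0232 and 0.0204), of which the salT call was lost on leaving out replicate 1 or 2 at 3 h or any 1 of the 3 replicates at 6 h, and the RAB21 call on leaving out replicate 2 or 3 at 3 h or replicate 2 at 6 h. GER2, a germin-like protein, rose by 1.04 ± 0.06 in NIL-BPH9 and by 2.01 ± 0.06 in 9311. For AOS1 and OPR13 the changes in 9311, -0.38 ± 0.06 and -0.25 ± 0.05, also passed, and the line differences of 0.03 ± 0.09 and -0.02 ± 0.06 did not (limma adjusted p = 0.89 for each).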

How the data were processed

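The deposited table gives a log2 value per probe set for each of 18 Affymetrix arrays. Per the submitters' processing notes the authors used MAS5. Its version is not given in the sources used here. On every array the linear signal had a 2% trimmed mean of 500.076 to 500.088, so the deposited log2 values were already scaled, and they were not normalized again.

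Control probe sets (187 of 57381) were left out. Tested probe sets reached the array median on 3 or more of the 12 infested arrays. Limma 3.58.1 (R 4.3.3) fitted 4 group means with eBayes and an intensity trend, and was tested on simulated data. Its p-values set a difference of group means against a variance pooled over the 4 groups and drawn towards the trend. That variance comes from biological replicates, and the number of arrays limits the precision. Same-numbered NIL-BPH9 arrays did not deviate together (r from -0.0068 to 0.0215), so they were not paired.

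The brightest tested probe set stood for a gene, taken among those not ending in _x_at where there was one. Names came from the platform annotation through RefSeq (assembly GCF_034140825.1 ASM3414082v1), synonyms included, and 2458 of 17905 genes had one. Members and the 35 lists were chosen with earlier results of these data known. After member values had been seen, 7 false list entries (4 of them called) were taken out, moving the called members from 335 to 334. Named genes were the 14 largest called rises and falls without overlap, the 3 largest each way per list with 3 or more calls, the 6 largest line differences each way, and members of the DREB, JAZ, jasmonate, WRKY, clock, terpenoid and heat shock lists, of which a selection is printed. Genes with both groups under the array median were not named among the largest. Alternatives changed the scaling, filter, floor, arrays fitted, variance model, weights, pairing or replicates.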

Additional observations from a re-analysis of the deposited data

Results flagged for a closer look

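For 45 of the genes named above, the change from 3 h to 6 h differed between NIL-BPH9 and 9311 in limma's test of the difference (adjusted p below 0.05). Values are NIL-BPH9 minus 9311 on the log2 scale. Among transcription factors and regulators the difference was higher in NIL-BPH9 for BZIP52 (1.37), OsEIL1b (1.21), DREB1B (1.11), DREB1A (1.03), MADS18 (0.95), DREB1E (0.80), OsC3H33 (0.59), MYB2 (0.59) and DREB2B (0.44). It was lower for TIFY10C (-0.61), TIFY11C (-0.60) and OsWRKY76 (-0.48).

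In calcium, abscisic acid, stress and redox genes it was higher for BURP16 (1.55), GRXC1 (1.38), GRXC10 (1.30), ABA8OX1 (1.21), OsPP2C32 (1.21), CML31 (1.15), GRXS5 (0.98), CML15 (0.86) and OsSAP17 (0.80), and lower for RAB21 (-1.34), salT (-1.27), GER2 (-0.98) and HIRL2 (-0.94). In wall and lignin genes it was higher for EXLA2 (0.86), EXLA1 (0.71) and LAC7 (0.45). The wall and lignin genes with a lower value were EXPA1 (-1.54), EXPB6 (-0.99), 4CL1 (-0.98), EXPB11 (-0.82), LAC4 (-0.81), OsMAN1 (-0.67), EXPA2 (-0.50) and 4CL3 (-0.47).

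Among transport and metabolic genes it was higher for HXK6 (0.99) and TIP3-1 (0.97), and lower for PIP2-5 (-1.65), OsPSY2 (-1.13), PIP1-3 (-1.04), PORA (-1.03), NIA1 (-0.98), NRAMP5 (-0.54) and LOX5 (-0.47). In TIFY11C, RAB21, EXPA1, PORA, GRXC10, OsEIL1b, MADS18 and BURP16 the changes of both lines were called and opposite in direction.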

How the results depend on the processing

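The NIL-BPH9 comparison had 6552 called probe sets. Centring each array on its median gave 4292, of which 4062 were among the 6552, and moved the rises from 45.2% to 70.6% of calls. Centring also gave 1274 calls (77.2% rises) in 9311 against 2502 (54.2% rises), and 881 line differences (66.5% higher) against 2389 (52.2% higher). The fit of all 18 arrays gave 1488 line differences. Without an intensity trend there were 1610 calls in 9311 and 1336 line differences. Leaving out 1 array at a time gave 5144 to 5596 calls in NIL-BPH9, 1768 to 2444 in 9311 and 1828 to 2220 line differences. The replicate block gave 6207 NIL-BPH9 calls, where the numbers did not pair the samples. Of the 80 called genes named in the text, 67 kept direction and call under all 16 alternatives of the NIL-BPH9 comparison, 13 lost the call under at least 1, and 0 reversed. Called list members numbered 334, and 286 to 301 with 1 array left out. The mean 3' to 5' ratio differed by 0.0015 on the log2 scale (exact permutation p = 1.0). The difference was -0.0463, -0.0876, -0.0008 and -0.0387 without the first actin, elongation factor, second actin and second glyceraldehyde-3-phosphate dehydrogenase pair, and from -0.155 to 0.190 with 1 array left out, with exact permutation p of 0.4 or more in each case. The cause of these moves was not tested. Signal near the array median limits OsSWEET15, Hd1, LOX1.1, AMY1.3 and Chib3H-a.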
